A study of Mus musculus with 10 samples.

Results

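REST binding was examined at 37 genes that encode RNA-binding proteins, most of them regulators of alternative splicing in neurons, out of 26089 curated RefSeq genes on chromosomes 1 to 19 and X. The genes were taken by name from the CELF, ELAVL, NOVA, RBFOX, SRRM, PTBP, MBNL, KHDRBS, HNRNP, SRSF, DDX, MSI and CPEB groups, not all of them in full. A peak was counted for a gene where it overlapped the gene body or lay within 5 kb of 1 of its start sites. REST ChIP-seq had been performed on bulk cortex of female mice aged 11 months with an antibody to the REST C-terminus. WT mice were compared with 3xTg mice, a model of Alzheimer's disease that carries transgenes for mutant human APP and tau together with a mutant presenilin 1 knock-in allele. Each genotype had 4 replicates of 4 pooled cortices and 1 input library, and the authors deposited 1 list of peaks per genotype. The lists give no value per replicate, so no difference between the genotypes could be tested, and each value below is a single number for 4 replicates together.

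REST, the RE1-silencing transcription factor, binds a long DNA element called RE1 through its zinc fingers and recruits corepressors to genes of the neuronal programme. Alternative splicing in the brain is set by families of RNA-binding proteins with paralogs of wide and of neuron-restricted expression, such as PTBP1 and PTBP2 or ELAVL1 and ELAVL2 to ELAVL4. SRRM4, which promotes the inclusion of neural microexons, and REST are known to act on each other, since REST represses the Srrm4 gene and SRRM4 promotes an alternative splice form of REST. By textbook knowledge 16 of the 37 genes are expressed mainly in neurons, 16 are expressed widely, and 5 fall between. RNA was not measured in these samples, and in bulk tissue fewer cells of a type and less binding per cell cannot be told apart.

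The RNA-binding protein genes carried REST peaks more often than genes in general. A WT peak was assigned to 15 of the 37 genes, or 40.5% (95% Wilson interval 26.3 to 56.5), where 9.30% of all genes had one. A 3xTg peak was assigned to 18 genes, or 48.6% (33.4 to 64.1), where 14.2% of all genes had one. A peak in both lists was found at 13 of 37 genes (35.1%), against 7.78% of all genes. The 13 were Celf1, Celf2, Celf4, Celf6, Rbfox1, Rbfox2, Rbfox3, Srrm4, Mbnl1, Mbnl2, Khdrbs2, Msi2 and Cpeb3. Srsf1 and Ddx5 had a peak in the WT list alone, and Elavl2, Elavl3, Srrm2, Hnrnpa1 and Cpeb1 in the 3xTg list alone. The other 17 genes had no peak in either list. A peak in at least 1 list was thus found at 54.1% of the members, against 15.7% of all genes. The intervals cover counting error only, and genes are not replicates of a genotype.

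The 37 genes were longer than genes in general, with a median of 64.6 kb against 13.5 kb, and gene length moved with these shares. Among the 16 members over 100 kb, 11 had a WT peak (68.8%) and 13 a 3xTg peak (81.2%), against 24.9% and 39.2% of all genes of that length class, whose median lengths were 176 and 169 kb. Of the 12 members of 20 to 100 kb, 2 had a WT peak and 4 a 3xTg peak (16.7% and 33.3%), beside 10.7% and 16.8% of all such genes. Of the 9 members under 20 kb, 2 had a WT peak and 1 a 3xTg peak (22.2% and 11.1%), beside 6.16% and 9.0%. The members exceeded all genes by the widest margin in the class of long genes, and in the shorter classes, with 12 and 9 members, the intervals included the shares of all genes except in WT under 20 kb, where the interval began at 6.32%. Per 100 kb of gene, the members held 0.391 WT and 0.619 3xTg peaks, against 0.265 and 0.441 for all genes.

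**Figure D1:**
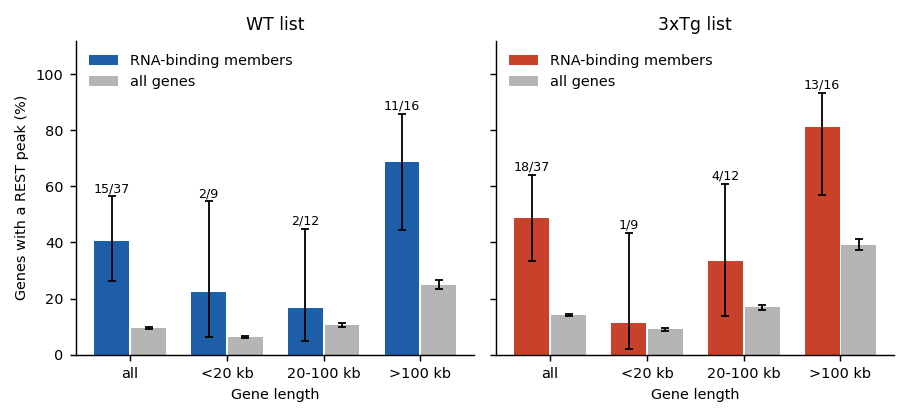
Percent of genes with a REST peak in the WT list (left) and the 3xTg list (right), for the 37 RNA-binding protein genes (coloured bars, with the number of genes above) and all 26089 genes (grey bars), in all and by gene length; bars are shares and lines 95% Wilson intervals. The members over 100 kb reach 68.8% and 81.2%, and those under 20 kb 22.2% and 11.1% with wide intervals.

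Most member peaks lay away from start sites, with 7 of 24 WT and 9 of 38 3xTg peaks within 5 kb of one. Such a WT peak lay within 5 kb of a start site of 6 members (16.2%, interval 7.65 to 31.1), where 6.72% of all genes had one, and such a 3xTg peak of 9 members (24.3%, 13.4 to 40.1), where 9.87% had one. Going by summits, 19 of 24 WT member peaks (79.2%) and 32 of 38 3xTg member peaks (84.2%) lay in introns more than 1 kb from any start site. Among peaks assigned to any gene these shares were 46.9% and 54.1%, without regard to gene length. Counted per gene, all genes over 100 kb had 220 of 869 WT and 328 of 1627 3xTg peaks within 5 kb of a start site. Members over 100 kb had 4 of 19 and 5 of 32, so few start site peaks were not particular to the members among long genes. The 6 members with a WT peak at the start site were Celf4, Celf6, Srrm4, Mbnl2, Srsf1 and Ddx5, and the 9 in the 3xTg list were Celf2, Celf4, Celf6, Elavl3, Srrm2, Srrm4, Mbnl2, Hnrnpa1 and Cpeb1. Only the 4 genes Celf4, Celf6, Srrm4 and Mbnl2 stood in both of these groups.

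Sequences under member peaks with an RE1 are shown here for Rbfox3, Celf6, Srrm4 and Celf2, because they differ in how closely they match the element and in where they lie. The sites in Celf4 are described below without their sequence. The genome (mm10, GRCm38.p6) was searched on both strands for the 20-base RE1 consensus, and a site was counted where at most 5 of the 20 bases differed. Each window below holds 30 bases, 5′ to 3′ on the strand given, with the bases that match the consensus in capitals. The Rbfox3 site lies in intron 4 of 13 at chr11:118585062-118585091 on the plus strand, with 2 mismatches. The Celf6 site lies in coding exon 1 of 12 at chr9:59578431-59578460 on the minus strand, with 3 mismatches. The Srrm4 site lies in the 5′ UTR, in exon 1 of 13, at chr5:116591490-116591519 on the plus strand, with 3 mismatches. The Celf2 site lies in intron 4 of 15 just upstream of an inner start site, at chr2:6721967-6721996 on the minus strand, with 5 mismatches. The last line is a contrast, the best match under the strongest Celf1 peak, in intron 1 of 13 at chr2:90983746-90983775 on the minus strand, which has 8 mismatches and is not counted as a site.
Rbfox3: ctaatGGCGCTGTtCcTGGTGCTGAaccgc
Celf6: ccgccGcCGCTGTCCgcGGTGCTGAaagcc
Srrm4: cctggGGCGCTGTCCgaaGTGCTGAaacgt
Celf2: agtgccGAGCTGataATGcTGCTGAtttgt
Celf1: atgaaGGAGgacTgttcGGTGCgGAaacta

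The Celf6 and Srrm4 sites hold both conserved parts of RE1, GCTGTCC and GTGCTGA, with 3 bases between them, and the Rbfox3 site has GTGCTGA intact. An RE1 site was present in 4 of 24 WT member peaks (16.7%, interval 6.68 to 35.9), against 7.09% of all WT peaks and 1.55% of equally wide windows placed 10 kb downstream of the peaks. It was present in 6 of 38 3xTg member peaks (15.8%, 7.44 to 30.4), against 6.09% of all 3xTg peaks and 2.11% of the windows. The WT interval includes the share of all WT peaks, and the lower end of the 3xTg interval lies just above the share of all 3xTg peaks. The 3xTg member count depended on the search. With at most 4 mismatches, or within 200 bases around the summit, only 4 of the 38 3xTg member peaks had a site. The WT count stayed at 4 under both. The limit of 4 mismatches removes sites from all peaks as well. Of the 213 WT and 309 3xTg peaks with a site, 48 and 114 had exactly 5 mismatches. Among the member peaks 0 of 4 and 2 of 6 did. The margin over all peaks was not computed for these stricter searches. The 3xTg member peaks were also wider than all 3xTg peaks, with medians of 1120 and 937 bases. All 4 sites of the WT list, in Rbfox3, Celf4, Celf6 and Srrm4, lay in peaks that the 3xTg list shared. The 3xTg list added a site under the Celf2 peak at the inner start site and a second one in Celf4, the latter 587 bases from its summit.

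**Figure D2:**
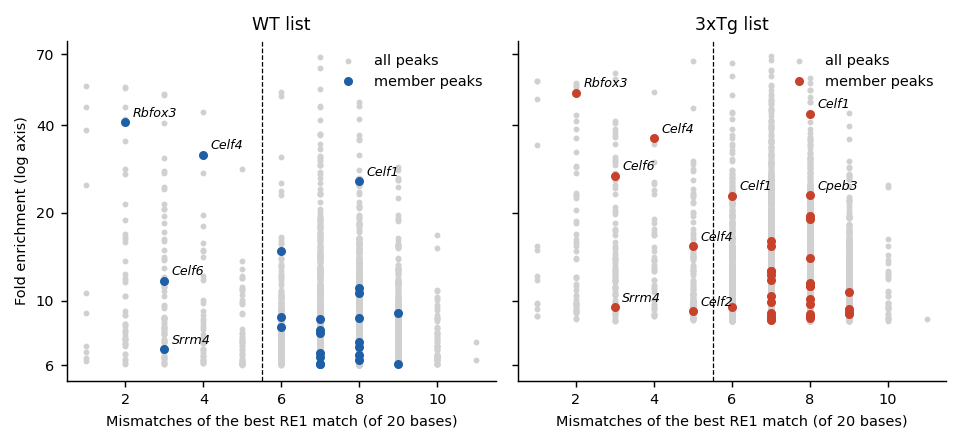
Fold enrichment (log axis) against the number of mismatches of the best RE1 match within the peak, of 20 bases, for all peaks (grey) and member peaks (coloured), in the WT list (left) and the 3xTg list (right); the dashed line marks the limit of 5 mismatches. Rbfox3, with 2 mismatches, and Celf4, with 4, lie near the top of both lists, Celf1 lies near the top with 8 mismatches, and Srrm4 is low with 3.

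The RBFOX proteins bind a short GCAUG element in introns and act as splicing enhancers or silencers according to its place. All 3 RBFOX genes had peaks in both lists. Rbfox3, which encodes the neuronal nuclear antigen NeuN, held the highest member peak of both lists, at chr11:118584367-118585636 in WT. Its fold enrichment, the ratio of reads at the summit to the local background, was 41.0 in WT (rank 21 of 3006) and 51.7 in 3xTg (rank 25 of 5077). The summits lay 74 and 59 bases from the RE1 site printed above. The peak was 176038 bases downstream of the nearest Rbfox3 start site, and the nearest start site of any gene was that of Engase, 108171 bases away, so the gene body and not the distance ties the peak to Rbfox3 here. The 3xTg list held 2 further Rbfox3 peaks in introns, with fold enrichments of 8.58 (rank 5004) and 11.8 (rank 2019).

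Rbfox1 spans 1528 kb, the longest of the 37 genes, and had 3 peaks in WT and 6 in 3xTg, all in introns. The 3 shared peaks had fold enrichments of 8.70, 9.08 and 7.19 in WT and of 14.0, 11.2 and 19.5 in 3xTg, in the order of their positions. The peak at 7.19 (rank 1570) and 19.5 (rank 523) had the largest ratio among shared member peaks, 2.71, and the peak at 9.08 (rank 777) and 11.2 (rank 2308) a ratio of 1.24. The 3 peaks of the 3xTg list alone had fold enrichments from 8.63 to 9.49 (ranks 4877 to 3708). For the shared peaks at 8.70 and 9.08 in WT, a start site of the non-coding RNA gene 1700123O21Rik was nearer than any of Rbfox1. The same held for the 3xTg-only peaks at 9.49 and 8.63. The WT summit at 8.70 lay 16467 bases from that start site and 107261 bases from the nearest of Rbfox1. None of the Rbfox1 peaks had an RE1 site at the limit used. Rbfox2, the widely expressed paralog, had 1 shared intronic peak near the bottom of both lists, at 6.05 in WT (rank 2851) and 9.15 in 3xTg (rank 4155).

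The CELF proteins bind GU-rich sequences and regulate splicing, stability and translation of mRNA. Peaks in both lists were found at 4 of the 6 genes, and Celf3 and Celf5, both neuronal, had none. Celf1, the widely expressed founding member, had 2 peaks in its first intron, 24530 and 43057 bases downstream of the start site. The first had fold enrichments of 14.8 in WT (rank 212) and 22.9 in 3xTg (rank 333). The second, at chr2:90982983-90983934 in WT, had 25.7 (rank 61) and 43.8 (rank 48), with the summit at the same base in both lists. Both stood in the top 10% of both lists without an RE1 site, with best matches of 6 and 8 mismatches. Most peaks of that stratum lacked one, since 17.3% of all WT and 13.8% of all 3xTg peaks in the top 10% had a site.

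Celf6, a neuronal member of the family, had its peak at the promoter, with the summit 95 bases downstream of the start site and 14 bases from the RE1 site in WT. Its fold enrichment was 11.7 in WT (rank 388) and 26.8 in 3xTg (rank 206), a ratio of 2.28. Celf4, a neuronal regulator of mRNAs for synaptic proteins, had a strong peak in intron 2 of 13, at 31.7 in WT (rank 33) and 36.1 in 3xTg (rank 85). That peak lay 11487 bases downstream of an inner start site, with an RE1 site of 4 mismatches 18 bases from the WT summit. Its ratio of 1.14 was the lowest among the shared member peaks. A second Celf4 peak, 1173 bases downstream of the outer start site, had 8.13 in WT (rank 1069) and 15.4 in 3xTg (rank 995). Near its summit both conserved parts of RE1 stood intact but 9 bases apart instead of 3, an arrangement that a search for the contiguous element does not count. A further peak, at 8.68 (rank 4780), was found in 3xTg alone.

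Celf2, expressed in brain, heart and blood cells, spans 857 kb and held 3 peaks in WT and 6 in 3xTg. Its 2 shared peaks, both intronic, had fold enrichments of 7.75 and 10.6 in WT and of 12.6 and 19 in 3xTg. The WT-only peak had 6.93 (rank 1814). The 4 3xTg-only peaks had between 8.98 and 10.4, all in the lower part of the list from rank 2838 on. The peak at the inner start site, with its RE1 of 5 mismatches, was among them at 9.21 (rank 4042), with its summit 439 bases upstream of that start site.

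SRRM4 and SRRM3 promote the inclusion of microexons in neurons, and SRRM2 is a scaffold protein of nuclear speckles in all cells. Srrm4 had a shared peak at its promoter, at 6.81 in WT (rank 1936) and 9.49 in 3xTg (rank 3744), with the summit 275 bases downstream of the start site and 37 bases from the RE1 site in WT. Both values lay in the lower part of their lists although the site had 3 mismatches. Srrm2 had a peak in the 3xTg list alone, at 9.89 (rank 3260), 181 bases upstream of a start site. Srrm3 had no peak by the rule, but a shared peak at 15.5 in WT (rank 180) and 24.1 in 3xTg (rank 278) lay 10809 and 9598 bases upstream of its curated 5′ end. The nearest start site of any gene to the WT summit was the one of Srrm3, at 11209 bases, and with predicted RefSeq transcripts included the gene begins at chr5:135806860, inside that peak. With those transcripts the counts of members rose to 16 in WT and 19 in 3xTg.

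The MBNL proteins bind short motifs around a GC pair and control the change of splicing from fetal to adult forms. Both MBNL genes among the members, Mbnl1 and Mbnl2, had peaks in both lists. Mbnl3, counted among the 90 other genes below, had none in either list. Mbnl1 had a shared intronic peak at 7.94 in WT (rank 1164) and 16.0 in 3xTg (rank 893) and a second one at 6.05 (rank 2898) and 9.71 (rank 3453). Another Mbnl1 peak, at 11.4 (rank 2230), was listed in 3xTg alone. Mbnl2 had a WT-only peak at its promoter, at 6.62 (rank 2081) with the summit 12 bases upstream of the start site. It also had a shared peak 1840 bases downstream of its other start site, at 8.63 in WT (rank 899) and 12.2 in 3xTg (rank 1857). No MBNL peak had an RE1 site.

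CPEB proteins bind the cytoplasmic polyadenylation element and regulate translation at synapses. Cpeb3 had 2 shared peaks, both in introns and over 100 kb from its own nearest start site, with a start site of another gene nearer. They had fold enrichments of 11.0 and 6.05 in WT (ranks 447 and 2875) and of 23.0 and 15.4 in 3xTg (ranks 329 and 997), and the second changed by a ratio of 2.54. A further Cpeb3 peak, at 9.32 (rank 3953), was listed in 3xTg alone. Cpeb1 had a peak in the 3xTg list alone, at 10.1 (rank 3093), 878 bases upstream of the start site, and its nearest WT peak was 14301 bases away. Msi2, an RNA-binding protein of neural and blood progenitors, had 1 shared peak at 6.41 in WT (rank 2388) and 12.6 in 3xTg (rank 1649) and a 3xTg-only peak at 11.5 (rank 2174). That 3xTg-only peak lay 11087 bases from a start site of 0610039H22Rik and 110065 bases from the nearest one of Msi2. Khdrbs2, which encodes the neuronal STAR-family protein SLM1, had 1 shared peak in intron 7 of 8, at 6.52 in WT (rank 2194) and 11.2 in 3xTg (rank 2289), with a start site of Gm5415 nearer than its own.

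The general splicing factors Ddx5, Srsf1 and Hnrnpa1 had a peak in 1 list each, at the promoter. Ddx5, an RNA helicase that acts in transcription and splicing, had a WT-only peak at its promoter with a fold enrichment of 8.80 (rank 842) and the summit 116 bases downstream of the start site. It was the single WT-only member peak above 8.50, the lowest fold enrichment in the 3xTg list. Srsf1, an SR protein of exon recognition, had a WT-only promoter peak at 6.24 (rank 2643). Hnrnpa1, which opposes SR proteins at many exons, had a 3xTg-only peak at 8.84 (rank 4559), 255 bases upstream of the start site. The ELAVL genes, whose neuronal members stabilise mRNAs with AU-rich elements, had peaks in the 3xTg list alone, at 10.7 (rank 2621) for Elavl2 and 9.05 (rank 4286) for Elavl3, both in introns.

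The promoter of Ddx5 is shown as an example of a member peak with no RE1 site, the best match in the peak having 6 mismatches. The line gives the 150 bases upstream of the start site, chr11:106789186-106789335 on the minus strand, as in RefSeq (GRCm38.p6), with CpG dinucleotides in capitals. The stretch holds 16 CpG, and the median over the same stretch of 32851 promoters was 4.
Ddx5: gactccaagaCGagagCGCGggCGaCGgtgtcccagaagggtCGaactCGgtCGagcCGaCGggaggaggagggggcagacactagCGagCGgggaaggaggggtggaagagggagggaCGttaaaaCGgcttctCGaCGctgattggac

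The 7 WT peaks at member start sites had a median GC content of 61.7% in the 300 bases around the summit, against 47.0% for all 24 WT member peaks. In the 3xTg list the 9 peaks at member start sites had 51.3% and all 38 member peaks 46.7%. All peaks within 5 kb of a start site had 56.3% in WT and 55.7% in 3xTg, and all peaks 48.7% and 47.3%. The value at member start sites thus lay above that of all such peaks in WT and below it in 3xTg. With 7 and 9 peaks these medians are uncertain.

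**Figure D3:**
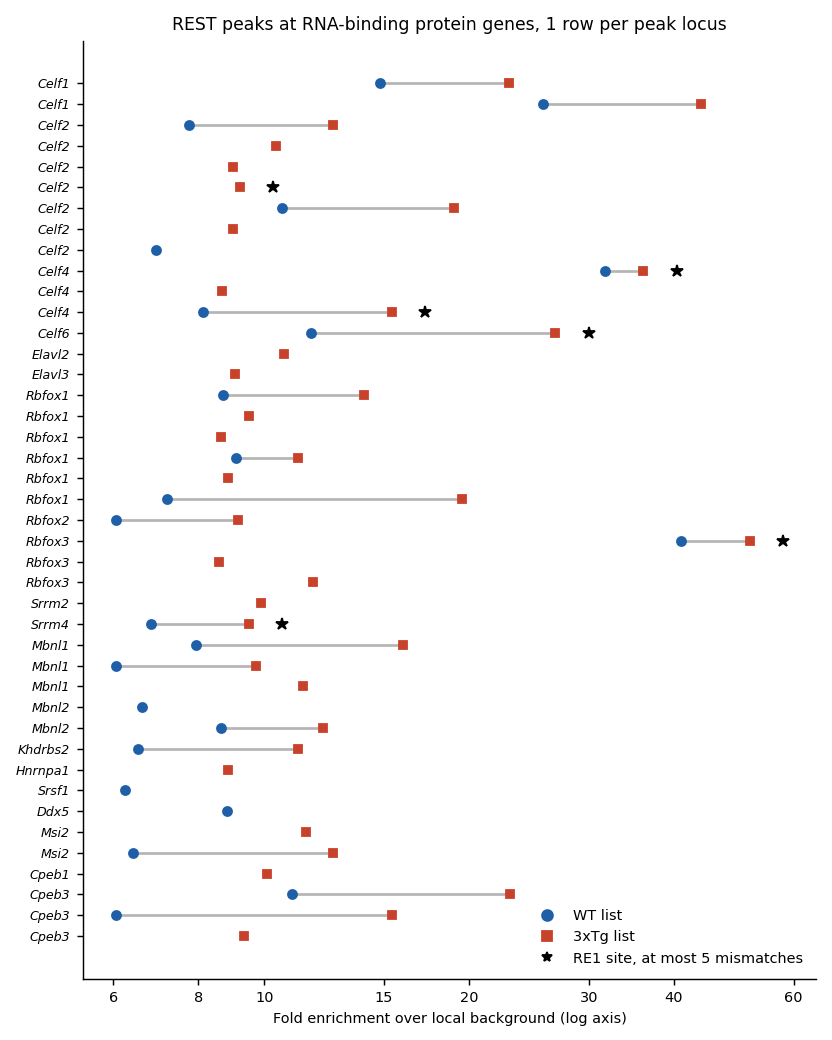
Fold enrichment over local background (log axis) of each of 42 peak loci at the RNA-binding protein genes, 1 row per locus, in the WT list (blue circles) and the 3xTg list (red squares); grey lines join the values of shared peaks and stars mark loci with an RE1 site of at most 5 mismatches in either list. All 20 shared loci have the higher value in 3xTg, and the 18 loci of the 3xTg list alone lie between 8.58 and 11.8.

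Of the 24 WT member peaks 20 overlapped a 3xTg peak and 4 (16.7%) were WT-only, the same percentage as among all WT peaks. Of the 38 3xTg member peaks 20 were shared and 18 (47.4%, interval 32.5 to 62.7) were 3xTg-only, against 51.0% of all 3xTg peaks. The split of the member peaks thus lay at the level of the lists as a whole. The 3xTg-only member peaks had a median fold enrichment of 9.27 and the shared ones 15.4 in 3xTg, and 15 of the 18 stood below the middle rank of the list, as did 75.2% of all 3xTg-only peaks. The lists themselves do not reach equally low. The WT list begins at 6 and the 3xTg list at 8.50, and 13 of the 24 WT member peaks, 3 of the 4 WT-only ones included, had a value under 8.50. Of all WT peaks 68.4% did, and of all WT-only peaks 99%.

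All 20 shared member peaks had the higher fold enrichment in 3xTg, with a median ratio of 1.67 (range 1.14 to 2.71). Among all 2504 shared WT peaks 99.5% did, with a median ratio of 1.70, close to the value of the members. The shared member peaks were also wider in 3xTg in 20 of 20 cases, by a median ratio of 1.79 against 1.66 for all shared peaks, and their summits differed by a median of 26 bases. The study's library summary lists more uniquely mapped reads for the 3xTg replicates together than for the WT replicates, and the part of read depth in these ratios was not tested. Ranks in the whole lists are not comparable as moves either, since the 3xTg list holds more peaks and most of those it alone holds stand low. Ranked among the 2504 shared peaks alone, 11 of the 20 member peaks (55%) stood nearer the top by 3xTg than by WT fold enrichment, beside 48.8% of all shared peaks. A Cpeb3 peak went from 97.2% from the top by WT value to 38.7% by 3xTg value, and an Rbfox1 peak from 60.5% to 21.2%. Another Rbfox1 peak went the other way, from 31.1% to 72.3%, and the Mbnl2 peak from 35.8% to 63.0%. The Cpeb3 peak started at 6.05 in WT, near the lowest WT value of 6, so it had little room to fall. It was tied there with the Rbfox2 peak and an Mbnl1 peak, which went to 93.6% and 87.5%.

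**Figure D4:**
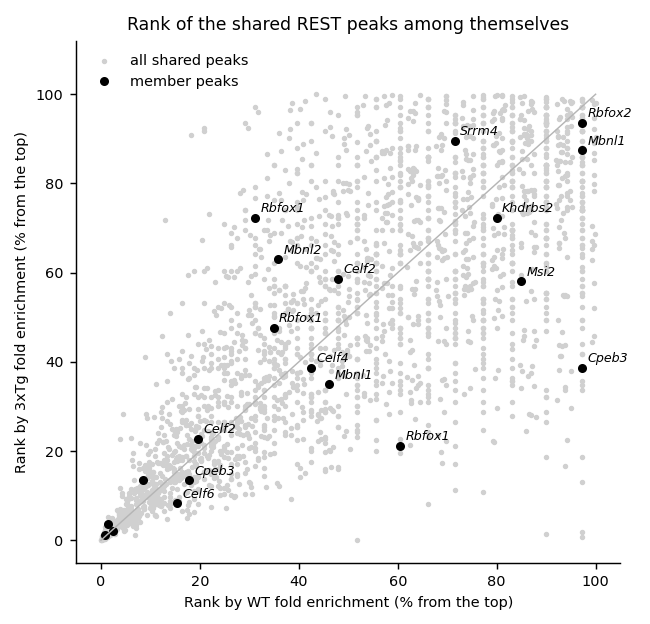
Rank of each shared peak among the 2504 shared peaks by WT fold enrichment (horizontal) and by 3xTg fold enrichment (vertical), as percent from the top, for all shared peaks (grey) and the 20 shared member peaks (black, named where they lie outside the top 12% by WT value); the line marks equal rank. The member peaks fall on both sides of the line, 11 of them under it, with Cpeb3 and Rbfox1 peaks farthest under and an Rbfox1 peak farthest above.

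Expression type and family did not divide the genes in the same way. Of the 16 neuronal genes 6 had a WT peak and 8 a 3xTg peak, and of the 16 widely expressed genes 6 and 6. The median lengths were 135 and 18.1 kb, so these counts do not compare the types at equal length. Of all genes, 24.9% over 100 kb and 6.16% under 20 kb had a WT peak, and 39.2% and 9.0% a 3xTg peak. Per 100 kb of gene, the neuronal members held 0.242 WT and 0.458 3xTg peaks, and the widely expressed ones 1.03 and 1.03. All genes over 100 kb held 0.143 and 0.268, and all genes under 20 kb 0.955 and 1.43. A difference by expression type at equal length was not tested. Neither NOVA gene, whose proteins are neuron-specific splicing factors, had a peak. The same held for Ptbp1 and Ptbp2, the repressors whose exchange marks neuronal differentiation, and for their paralog Ptbp3. Elavl1 and Elavl4 had none, nor had Khdrbs1 and Khdrbs3, the paralogs of Khdrbs2. Tardbp and Hnrnpk, regulators of splicing and RNA transport, the SR protein genes Srsf3 and Srsf9, and Msi1, a marker of neural stem cells, completed the group without peaks. The nearest peak of either list to these 17 genes lay from 7022 bases, at Srsf9, to 1294886 bases away, with a median of 79774. A gene without a peak is one with no region in these lists, which begin above the stated threshold and at different values in WT and 3xTg, and this does not show that REST was absent.

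As a wider set, 90 other genes for RNA-binding proteins were counted by the same rule, of which 22 had a WT peak (24.4%, interval 16.7 to 34.2) and 30 a 3xTg peak (33.3%, 24.5 to 43.6). Their median length was 26.9 kb. At start sites they stood level with the members. A WT peak lay within 5 kb of a start site at 18 of the 90 genes (20%), beside 16.2% of the members. For 3xTg peaks the shares were 23.3% and 24.3%. Per 100 kb of gene they held 0.622 WT and 0.905 3xTg peaks, more than the 0.391 and 0.619 of the longer members. By group, a WT peak and a 3xTg peak were found at 2 and 3 of 12 SR protein genes, at 7 and 8 of 30 hnRNP and FET genes, at 6 and 10 of 25 other splicing regulators, and at 7 and 9 of 23 regulators of translation and transport. Of their 22 WT peaks, 16 (72.7%) had the summit within 1 kb of a start site, where 5 of 24 member peaks (20.8%) did. This difference was described and not tested. The members are longer, with a median of 64.6 kb, and the position of peaks was not compared at equal length. The highest of them was at Lin28a, a regulator of let-7 processing, with 24.6 in WT (rank 69), 37.1 in 3xTg (rank 78) and an RE1 site of 3 mismatches. G3bp1, a stress granule protein, followed with 12.4 and 23.4, and Rbm25, a splicing factor, with 11.9 and 22.4, both without an RE1 site.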

How the data were processed

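Per the labels and the study's methods, single-end reads from chromatin immunoprecipitated with a REST C-terminal antibody were aligned to mm10. The submitters' processing notes list BWA, Picard and STAR 2.7.0a, and the methods name STAR as the aligner, so which aligner made these lists cannot be told apart here. Peaks were called by the authors with MACS and kept above a fold enrichment of 5 and under a q-value of 0.01 and outside blacklisted regions. Each genotype has 1 such list, made over its 4 replicates. The deposited lists give, for each peak, its position, a score, a fold enrichment (a ratio to the local background), and the −log10 of the p- and q-value. They hold no counts, so depth per library is unknown from them, and they hold no values per replicate. Peaks on chromosome Y (4 in WT and 9 in 3xTg) were left out.

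Peaks were joined with curated RefSeq genes of GRCm38.p6 in Python 3.11.15 with pysam 0.24.0, and Wilson intervals were computed with statsmodels 0.14.6. Shared peaks overlap by at least 1 base. Their ranks among themselves were added after the values had been seen. RE1 matches were searched over the whole peak. The counting was tested on simulated peaks, in which all 300 planted sites and all 200 gene assignments were recovered. No significance test was run, since each genotype has 1 list. Every member is named in the text, with each of its peaks or, beyond 4 peaks, the highest ones and the range of the rest, beside the 3 other RNA-binding protein genes with the highest WT start site peak. The members, gene lists and comparisons were chosen with earlier results of these data known. Of the 37 members, 31 were found in the promoter table. Alternatives varied the gene rule, the thresholds, the annotation, the overlap and the RE1 limit.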

Additional observations from a re-analysis of the deposited data

How the results depend on the processing

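The number of members with a peak depended on the gene body and on the threshold. With start sites alone 6 members had a WT peak, 9 a 3xTg peak and 4 both. At a fold enrichment over 10, 6 members had a WT peak, 13 a 3xTg peak and 6 both, while the share of all genes fell to 1.91% in WT and 9.41% in 3xTg; in both lists the member peaks then split into 7 shared, 0 WT-only and 16 3xTg-only. With the lowest 3xTg value as the limit in both lists, chosen after seeing the data, 9 members had a WT peak and 8 both, with 10 shared, 1 WT-only and 28 3xTg-only peaks. The share of all genes was 6.16% in WT and 9.0% in 3xTg under 20 kb, and 24.9% and 39.2% over 100 kb. An overlap of at least 50% left 10 WT-only member peaks, and a 3xTg list shortened to the length of the WT list gave 7 WT-only and 5 3xTg-only. These splits, and the member counts at the lowest 3xTg value, were not computed over all peaks or genes. They therefore do not set the members apart from the lists as a whole. With up to 6 mismatches 7 WT member peaks had an RE1 site. Exactly 6 mismatches were found in 3 of the 24 WT member peaks and in 231 of all 3006 WT peaks. The other 37 of 61 values stayed within 1.5 times the reported one. Counting a peak only where no other gene has a nearer start site, Rbfox3, Khdrbs2 and Cpeb3 lost their WT peak and 12 members kept one. No replicate could be left out, and no paired analysis was possible because each list pools its 4 replicates.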

Other observations

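A few peaks stood just outside the gene rule. Srsf9, an SR protein, had a shared peak 7300 bases from the gene in WT and 7022 in 3xTg, at fold enrichments of 7.75 (rank 1230) and 21.5 (rank 405). The peak nearest to Tardbp, which encodes TDP-43, was 20852 bases away in WT and lay at the start site of Srm, at 9.64 (rank 667) in WT and 22.8 (rank 337) in 3xTg. The peak nearest to Srsf3 lay at the start site of Stk38, at 7.19 in WT and 8.63 in 3xTg.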
